A study of Mus musculus with 8 samples.

Results

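Skeletal muscle genes were measured in the RNA of whole mouse lung. The genes described are Myh1, Myh2, Myh4, Mylpf, Acta1, Tnnt3, Tnni2, Myom1, Myom2 and Ckm, and their probes were found by the gene symbol that the deposited annotation gives. These were 10 genes with 19 of the 41174 probes on the array, among 20920 genes with a symbol. The genes were picked because striated muscle genes such as Myom2 were lower in transgenic than in wild-type lungs, so that their differences between the genotypes chose them. Those differences are given below as a description. Each has its SE and no p-value, and where members are counted past a threshold the share of all probes stands beside the count and nothing is read from it.

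The animals were 4 wild-type mice and 4 mice transgenic for Scgb3a2. Total RNA from each lung was labeled with Cy5 and hybridized together with a Cy3-labeled common pool of lung RNA to an Agilent whole mouse genome array, which makes 8 two-color arrays. All mice were untreated C57BL/6 males, 8 to 10 weeks of age per the labels. The transgene placed mouse Scgb3a2, which encodes a small secreted protein of airway club cells, under the human surfactant protein C promoter, which is active in alveolar type II cells, and the transgenic animals came from 1 founder. It was introduced into eggs of C57BL/6NCr mice, whereas the labels of both genotypes name the strain C57BL/6. The comparison of the genotypes asked which genes differ in lungs that overexpress Scgb3a2 before any injury. Below, WT1 to WT4 and TG1 to TG4 are the lungs of the wild-type and the transgenic mice by replicate number.

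Skeletal muscle fibers contract when myosin motors of the thick filament pull on thin filaments of actin. Calcium binding to the troponin complex on the thin filament permits this movement, myomesins hold the thick filaments together at the M-band, and creatine kinase restores ATP from phosphocreatine. The lung parenchyma holds no skeletal muscle, although cardiac muscle is known to sheathe the large pulmonary veins of mice, and skeletal muscle and fat border the organ and the airways leading to it.

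All 10 genes had a probe well above background in the lung channel on 8 of 8 arrays. Of the 19 probes, 16 passed the filter on dim probes, which required a signal well above background on at least 4 arrays and at least 2 values in each genotype. The remaining 3 were further probes for Myh2, Myom1 and Myom2. The probes for Myh2 and Myom2 were well above background on 0 of 8 arrays, and that for Myom1 on 3 wild-type arrays. Several of the brightest probes were dim as well. Their median spot signals in the lung channel were 114 to 484 for Ckm, 123.5 to 434 for Myom2 and 139 to 213 for Mylpf. Others were brighter, such as Myh4 at 436 to 1798, while the undetected Myom2 probe read 60 to 69. A gene with several probes is given below by its brightest, and the values are log2 ratios of lung over pool, normalized within each array, so that 0 means the level of the pool and 1 means 2-fold above it. Because levels of different probes cannot be set against each other on these arrays, each gene is compared with itself across the lungs.

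Of the 12 measured genes in a list of lung epithelial and endothelial identity genes, 12 passed the same filter. The targeted gene Scgb3a2 lay 1.84-fold higher in transgenic lungs (log2 difference 0.88, SE 0.24, unadjusted p = 0.00329, adjusted p = 1, limma), with overlapping groups. The median spot signal in the lung channel was 204 to 277.5 on the 8 arrays, between 1.72 and 6.46% of spots were flagged as outliers, and 0 spots were saturated. There were 4 slides with a lung of either genotype on each, scanned on 2 days with 2 lungs of either genotype a day. The lungs came from separate mice, and the pool was the same throughout.

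Upstream sequence was at hand for 7 of the 10 genes, in the RefSeq entries of the mouse assembly GRCm38.p6, as windows of 300 bases from 250 before to 50 after the transcript start that those entries use. For Mylpf and Myom1 this start lies inside the span of the gene, downstream of its first base. The windows of Ckm and Myh4 are shown because their values followed each other most closely over the lungs, and that of Acta1 because it was the gene farthest from the pool. Capitals mark CAGCTG, which is a form of the E-box bound by myogenic factors, TATAAA on either strand, the CArG box bound by serum response factor and the MEF2 box.
Ckm, chr7:19410844-19411143, + strand: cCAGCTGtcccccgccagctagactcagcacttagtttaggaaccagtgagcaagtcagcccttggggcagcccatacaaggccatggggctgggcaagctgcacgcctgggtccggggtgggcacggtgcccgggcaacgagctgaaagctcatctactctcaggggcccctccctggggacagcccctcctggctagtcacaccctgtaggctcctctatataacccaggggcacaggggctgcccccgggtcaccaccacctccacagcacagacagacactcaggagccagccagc
Myh4, chr11:67237562-67237861, + strand: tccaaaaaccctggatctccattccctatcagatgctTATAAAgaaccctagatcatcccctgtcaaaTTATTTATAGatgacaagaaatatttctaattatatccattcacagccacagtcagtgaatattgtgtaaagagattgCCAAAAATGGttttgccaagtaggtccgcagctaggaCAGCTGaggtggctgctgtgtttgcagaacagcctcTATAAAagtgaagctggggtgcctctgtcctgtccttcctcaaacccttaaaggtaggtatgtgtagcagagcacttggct
Acta1, chr8:123894726-123895025, - strand: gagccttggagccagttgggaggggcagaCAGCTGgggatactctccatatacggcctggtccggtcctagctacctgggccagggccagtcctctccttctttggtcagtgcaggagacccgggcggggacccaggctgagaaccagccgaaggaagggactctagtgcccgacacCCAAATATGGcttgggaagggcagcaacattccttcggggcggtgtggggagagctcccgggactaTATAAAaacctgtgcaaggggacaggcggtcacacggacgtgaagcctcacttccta
CAGCTG was found in 4 of the 7 windows, namely those of Myh4, Mylpf, Acta1 and Ckm, and in 16.3% of all 32851 promoter windows. The general E-box CANNTG, which contains CAGCTG, was in 5 of 7 windows and in 72.3% of all. TATAAA, searched together with its complement, was in 4 of 7 windows and in 13.6% of all. A CArG box was found in the windows of Myh4, Acta1 and Myom1, which is 3 of 7 against 1.63% of all windows. It began 73 bases before the start in Acta1, 104 bases in Myh4 and, counted from the internal start its window uses, 99 bases in Myom1. A MEF2 box was found in 2 of 7 windows, those of Myh1 and Myh4, and in 3.19% of all. In both genes it reads TTATTTATAG, and within it lie the letters TTTATA that the search for TATAAA also counts. Such a match is a match of letters and was not tested for binding here.

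Myom2 encodes myomesin 2, an M-band protein of fast skeletal fibers and of the heart, and lies on chromosome 8 from 15057653 to 15133420 in GRCm38.p6. Its brightest probe gave log2 ratios of 0.96 in WT1, 0.42 in WT2, 0.59 in WT3 and 0.43 in WT4. In the transgenic lungs the ratios were -0.70 in TG1, 0.15 in TG2, 0.30 in TG3 and -0.06 in TG4. The groups did not overlap, with WT1 standing highest and TG1 lowest, and the 8 lungs spanned a 3.15-fold range. The means were 0.60 ± 0.25 in wild-type and -0.08 ± 0.44 in transgenic lungs (SD, n = 4 each), so that Myom2 was 1.60-fold lower in transgenic lungs (log2 difference -0.68, SE 0.21).

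The difference in Myom2 was unequal between slides. Transgenic minus wild-type, it was -1.66 on slide 2, which carried WT1 and TG1, -0.65 on slide 1, -0.27 on slide 3 and -0.13 on slide 4. It was therefore below 0 on 4 of 4 slides, but on slide 4 it was smaller than the wild-type SD of 0.25. By scan day it was -1.16 on the first day and -0.20 on the second. A block for slide or scan day leaves it at -0.68 by design, because each slide and each day held the genotypes in equal number. The difference was under 1.5-fold without TG1 (-0.47), without WT1 (-0.56) and with the background model fitted on all spots (-0.35). The other Myom2 probe was well above background on 0 of 8 arrays, and the difference it gave was 0.09.

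Myom1 encodes myomesin 1, the M-band protein shared by all striated muscle. Its ratios were 0.03, -0.07, 0.32 and -0.14 in WT1 to WT4 and -0.15, -0.09, -0.03 and -0.17 in TG1 to TG4. The groups overlapped, and WT3 alone lay clearly above the pool. The log2 difference was -0.15 (SE 0.11). A further Myom1 probe that passed the filter gave -0.03 (SE 0.16), and the 2 probes followed each other only loosely (r = 0.44 over 8 lungs).

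Ckm encodes muscle creatine kinase, which is made in skeletal and cardiac muscle, and lies on chromosome 7 from 19411094 to 19421583. Its ratios were 0.19 in WT1, 0.42 in WT2, 0.83 in WT3 and 0.39 in WT4. In transgenic lungs they were -0.31 in TG1, 0.18 in TG2, 0.04 in TG3 and 0.15 in TG4. The groups did not overlap, but only narrowly so, since TG2 lay just under WT1. With means of 0.46 ± 0.27 and 0.01 ± 0.22 (SD, n = 4 each), Ckm was 1.36-fold lower in transgenic lungs (log2 difference -0.44, SE 0.15). The difference was -0.68 on slide 1, -0.50 on slide 2, -0.24 on slide 3 and -0.36 on slide 4, and by scan day -0.59 and -0.30. It was thus more even over the slides than that of Myom2. It was past 1.5-fold with no offset added in the background correction (-0.59), with Agilent's processed signals and in the authors' matrix (-0.66 in both).

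The heavy chain genes Myh1, Myh2 and Myh4 encode the motors of fast fibers and stand next to each other on chromosome 11. Their sequences are near-identical, so a signal on a probe may include RNA of a neighbor, and their values are uncertain to that extent. Myh4, the motor of the fastest fibers, gave 0.12, 0.65, 1.1 and 0.22 in WT1 to WT4 and -0.25, 0.24, 0.24 and 0.75 in TG1 to TG4. WT3 was highest and TG1 lowest, but TG4 lay above all wild-type lungs other than WT3, and the groups overlapped. The 8 lungs spanned a 2.55-fold range, and the difference between the means was -0.28 (SE 0.24). With the slide as a block the difference is the same by design, and its SE was 0.10. The second Myh4 probe ran against the first over the lungs (r = -0.56), with 0.74 in TG1 and between -0.25 and 0.27 in the other 7 lungs.

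For Myh2, the motor of intermediate fast fibers, the ratios were -0.34, 0.07, 0.26 and 0.45 in wild-type and -0.18, -0.11, 0.00 and -0.33 in transgenic lungs. The wild-type range enclosed that of the transgenic lungs, and the difference was -0.26 (SE 0.16). Further Myh2 probes that passed the filter gave -0.05 (SE 0.12) and -0.20 (SE 0.13). For Myh1, the ratios were -0.36, -0.34, 0.52 and 0.13 in wild-type and -0.01, -0.33, -0.25 and 0.38 in transgenic lungs. High and low lungs stood in both groups, and the difference of -0.04 (SE 0.21) turned to 0.14 when WT3 was left out. The second Myh1 probe gave -0.13 (SE 0.11). Mylpf, the light chain that fast myosins carry, had -0.20, 0.08, -0.19 and 0.16 in wild-type and -0.19, 0.15, 0.06 and 0.18 in transgenic lungs. Its values overlapped fully, with a difference of 0.09 (SE 0.12).

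The thin filament was represented by troponin subunits and by actin. Tnnt3, which encodes the subunit that anchors fast troponin to tropomyosin, had ratios of 0.36, -0.06, -0.07 and 0.14 in WT1 to WT4 and 0.12, -0.08, -0.07 and 0.06 in TG1 to TG4. All lungs other than WT1 lay close to the pool, and the difference was -0.08 (SE 0.11). It was -0.31 (SE 0.15) on a second Tnnt3 probe, which did not follow the first over the lungs (r = 0.06). Tnni2, the inhibitory subunit of fast troponin, had -0.11, -0.30, -0.55 and -0.63 in wild-type and -0.29, -0.17, -0.16 and -0.41 in transgenic lungs. Its difference of 0.14 (SE 0.12) was opposite in sign to that of Tnnt3, although both subunits serve the same complex.

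Acta1, the actin of skeletal muscle thin filaments, had -1.23, -0.79, -1.03 and -0.63 in WT1 to WT4 and -0.51, -0.64 and -1.12 in TG1, TG2 and TG4. The spot on TG3 was flagged and gave no value. All 7 lungs measured were below the pool, and the groups overlapped with a difference of 0.17 (SE 0.18).

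**Figure D1:**
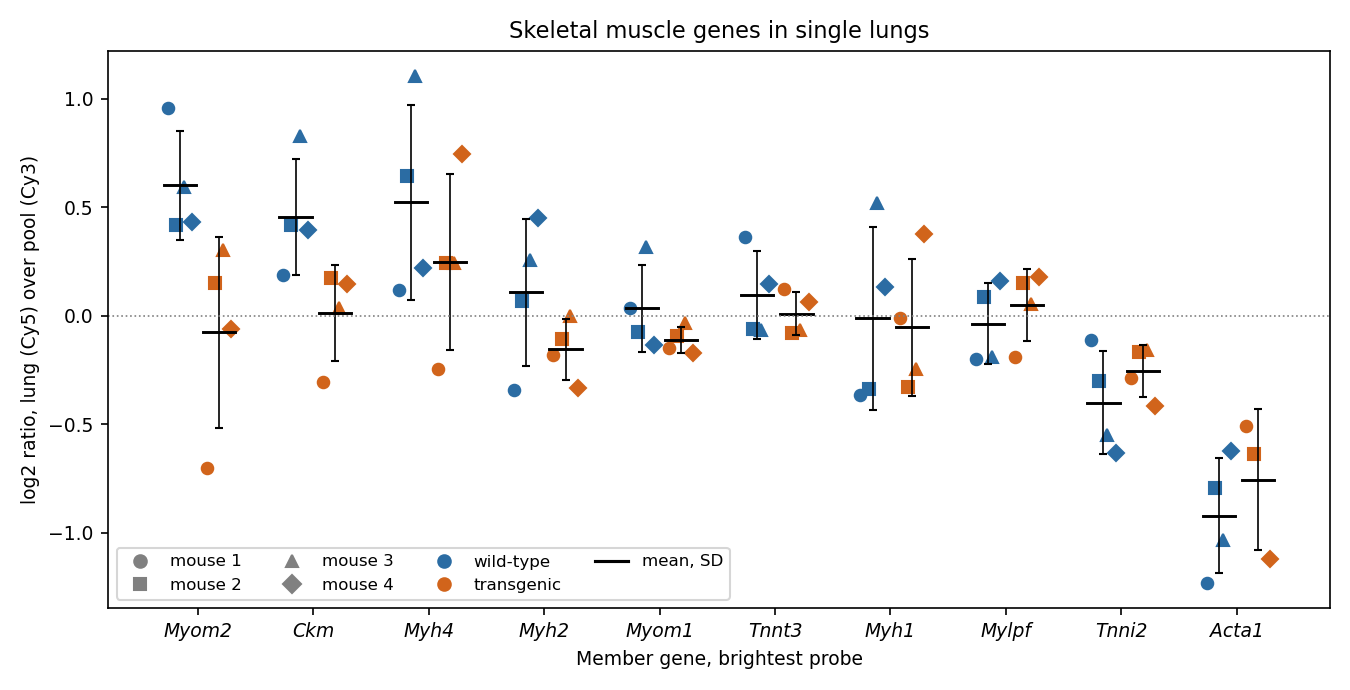
Log2 ratio of lung over pool for the brightest probe of each of the 10 genes, with wild-type lungs in blue and transgenic lungs in orange. Symbols mark the mouse number, which pairs no animals between genotypes, and black lines give the mean and SD of 4 lungs (3 for transgenic Acta1); groups are apart for Myom2 and Ckm, and Acta1 lies below the pool in all 7 lungs measured.

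Over the 10 genes, 7 were lower and 3 higher in transgenic lungs by the mean of the brightest probe, and 13 of the 16 probes that passed the filter were lower, while 49.6% of all 32645 probes tested were lower. Myom2 was the 1 member past 1.5-fold with an unadjusted p under 0.05 in the lower direction, where 0.104% of all probes were, and 0 members were past it in the higher direction, where 0.126% of all probes were. Myom2 and Ckm were the 2 members whose groups did not overlap with the transgenic lungs lower, as held for 0.904% of all probes, and 0 did so with the transgenic lungs higher, as held for 1.07%. Since this contrast chose the genes, nothing is read from these counts. No probe on the array passed an adjusted p of 0.05 in limma (0 of 32645, with 683 under an unadjusted p of 0.05). The median difference over the 10 genes was -0.12, against 0.00 over all probes tested. In whole-lung RNA, a lower share of muscle cells and less RNA per cell cannot be told apart.

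**Figure D2:**
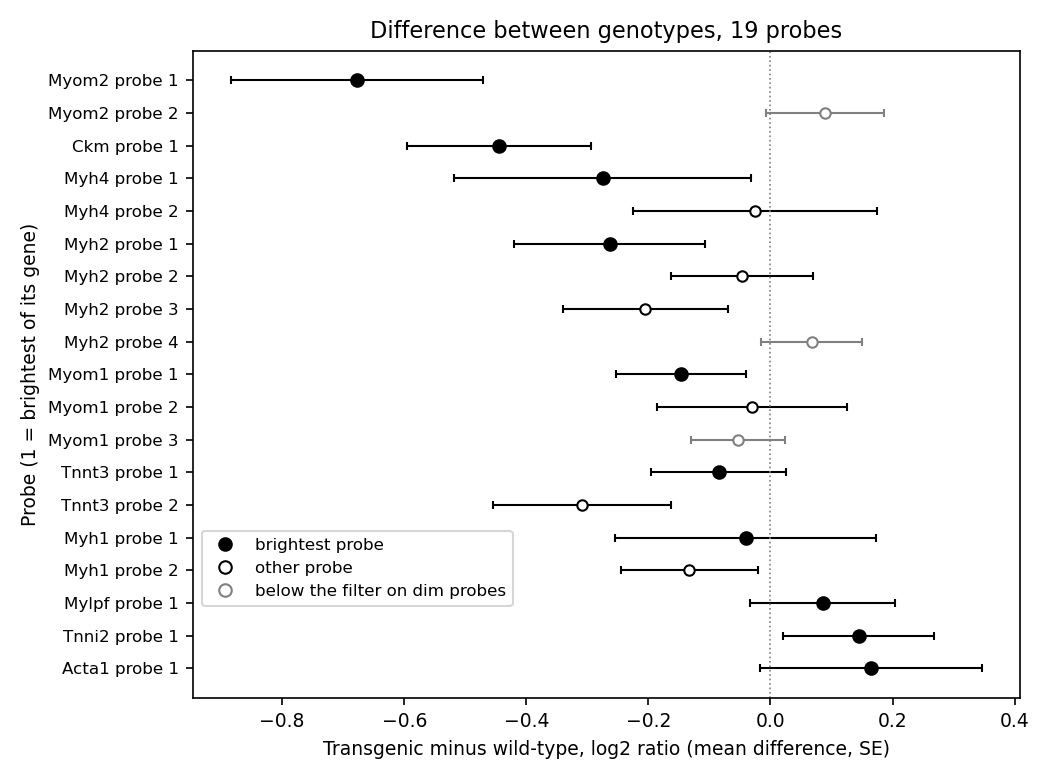
Transgenic minus wild-type mean log2 ratio for all 19 probes, with bars for the SE of limma; probe 1 is the brightest of its gene. The brightest Myom2 and Ckm probes lie farthest to the left at -0.68 and -0.44, whereas probes of 1 gene can differ, as for Tnnt3 with -0.08 and -0.31.

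Directions were checked under other background corrections, scalings and without each mouse. Myom2, Ckm, Myh2, Myh4 and Myom1 stayed lower and Mylpf and Tnni2 stayed higher in transgenic lungs under the 17 alternatives run for each. These alternatives were not independent. For these genes, blocks for replicate number, slide or scan day could not change the difference. Agilent's processed signals and the authors' matrix gave them the same differences. Acta1 turned from 0.17 to -0.05 when the background model was fitted on all spots and to -0.04 in the Cy5 channel alone. Tnnt3 turned to 0.00 without WT1, and Myh1 lay above 0 without WT3, WT4, TG2 or TG3.

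The contrast of the lungs with the pool played no part in the choice of the genes. Over the 8 arrays, Acta1 was the only member that passed both 1.5-fold and an adjusted p of 0.05 in limma's test, at 1.79-fold below the pool (mean log2 ratio -0.84, SE 0.09, adjusted p = 3.18e-05). Of all probes tested, 4.72% were below and 5.87% above the pool by this rule. By adjusted p alone, the genes Myom2 at 0.26 (adjusted p = 0.0452), Ckm at 0.23 (adjusted p = 0.0208) and Myh4 at 0.38 (adjusted p = 0.0162) were above the pool and Tnni2 at -0.33 (adjusted p = 0.00121) was below it beside Acta1. This is 3 genes above and 2 below, while 29.5% of all probes were above and 28% below by the same measure. The call of Myom2 above the pool was lost in 12 of 16 alternatives, with values between 0.20 and 0.37, and that of Ckm in 5 of 16. That of Myh4 was lost under median centring (0.23, adjusted p = 0.129). Acta1 stayed below the pool in 16 of 16, between -0.99 and -0.66.

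As the pool was stated to hold equal amounts of every sample, the mean of the linear ratios over the lungs was also taken. With such a pool of these lungs, and dyes that read alike, this mean would equal the level of the pool. The mean was 1.01 for the median probe, 1.26 for Myom2, 1.20 for Ckm and 0.56 for Acta1. A mean ratio as low as that of Acta1 or lower was found for 1.83% of probes. By the mean log2 ratio, other genes lay farther from the pool, such as Sprr1a 6.90-fold below and Scgb1a1 3.80-fold above it. The reason for these departures was not tested. No dye was swapped, so a difference between lung and pool and a difference between Cy5 and Cy3 cannot be told apart.

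Scan day was a technical split that could be tested. Slides 1 and 2 were scanned on the first day and slides 3 and 4 on the second, so day and slide overlap. By the rule of 1.5-fold and an unadjusted p under 0.05, 0 of 16 member probes differed between the days, where 0.576% of all probes did. By an unadjusted p under 0.05 in limma alone, 0 member probes differed, while 10.5% of all probes did. By an adjusted p of 0.05 it was again 0 member probes, and 0.0123% of all probes.

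Variation from lung to lung differed among the genes. The median SD within a genotype was 0.25 over the 10 genes, against 0.18 over all probes tested. Myh4 stood highest, with an SD of 0.43 that exceeded those of 97.4% of probes, followed by Myh1 at 95.3% and Myom2 at 94.3%. Myom1 at 34.2% and Tnnt3 at 40.4% varied less than most probes.

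The same pool was hybridized 8 times, and the spread of its Cy3 signal can be set beside that of the lungs. Both channels share the spot and the array, and effects common to both cancel in the log2 ratios. The Cy3 spread is therefore no measure of the noise of those ratios, and its sources were not tested. For 8 of 10 genes, and for 16 of 19 probes, the SD of the Cy5 signal over the lungs exceeded the SD of the Cy3 signal over the pool. In log2 units it was 0.65 against 0.37 for Myom2 and 0.49 against 0.31 for Myh4. For Ckm it was 0.72 against 0.66, so that the signal of the pool varied nearly as much as that of the lungs. The log2 ratios of Ckm had a smaller SD within a genotype, at 0.25. For Myh2 the pool varied more than the lungs, at 0.26 against 0.43, and so it did for Myom1, at 0.23 against 0.24. Over all probes the medians were 0.24 for the lungs and 0.18 for the pool, and over the 10 genes 0.25 and 0.22. A wider lung channel was thus no trait of the members. The share of all probes with the wider lung channel was not counted, so nothing is read from the member counts.

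**Figure D3:**
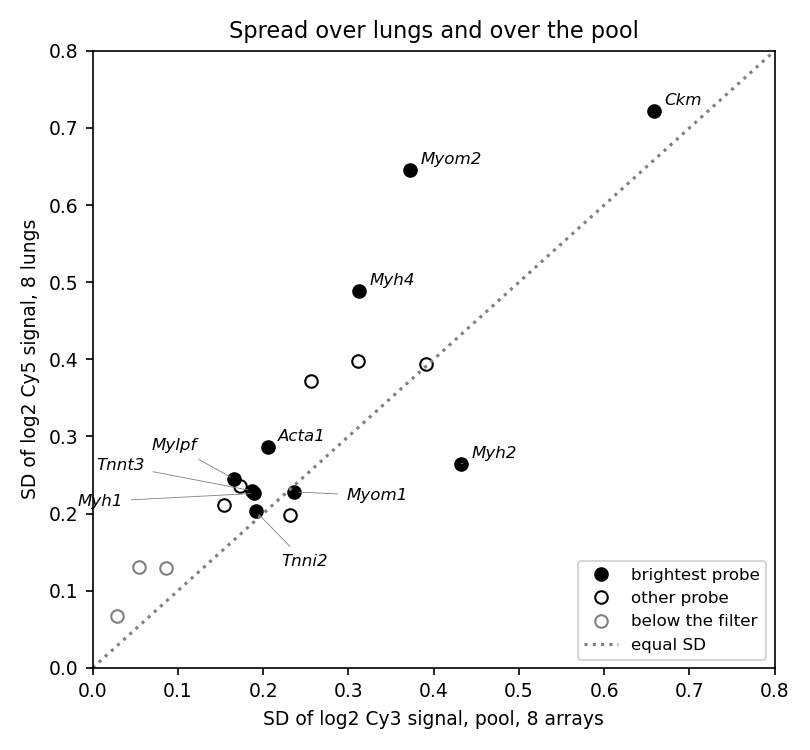
SD of the log2 Cy5 signal over 8 lungs (vertical) against the SD of the log2 Cy3 signal of the common pool over the same 8 arrays (horizontal), 1 point per probe, with names at the brightest probe of each gene. Points above the dotted line of equal SD varied more between lungs than between hybridizations of the pool, with Myom2 farthest above it and Myh2 below it.

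The brightest probes of the 10 genes did not rise and fall as a block. Over 45 pairs of genes the median correlation over the lungs was -0.07, with 22 pairs above 0 and 2 above 0.7. Those were Ckm with Myh4 (r = 0.83) and Ckm with Myom1 (r = 0.71), and the lowest was Myh1 with Tnni2 (r = -0.80). Each is taken over 8 lungs (7 where Acta1 is in the pair) that share the pool and the array of the lung, and is given as a description. With the genotype means removed the median was -0.01, with Ckm and Myh4 at 0.89 and Ckm and Myom1 at 0.58. Against the mean of the other members with a value in every lung, Ckm stood highest (r = 0.95, and 0.90 within genotype), and Tnni2 (r = -0.62), Acta1 (r = -0.53, 7 lungs) and Tnnt3 (r = -0.29) ran against it. Further tested probes of the same gene did not follow the brightest closely either. Their r with it was 0.32 for Myh1, -0.01 and -0.24 for Myh2, -0.56 for Myh4, 0.06 for Tnnt3 and 0.44 for Myom1. Whether low values between genes lie with the genes or with the probes was not tested.

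The mean over the 10 members per lung was -0.06 in WT1, 0.01 in WT2, 0.18 in WT3 and 0.05 in WT4, and -0.25 in TG1, -0.07 in TG2, 0.02 in TG3 and -0.06 in TG4. The value of TG3 lacked Acta1, the member farthest below the pool, and so rested on 9 genes. Over the same 9 genes in every lung, the mean was 0.07, 0.10, 0.31 and 0.13 in WT1 to WT4 and -0.22, -0.01, 0.02 and 0.06 in TG1 to TG4. Without Acta1 the groups did not overlap, though TG4 lay just under WT1, while with it they overlapped. The group means over the 9 genes were 0.15 ± 0.11 in wild-type and -0.04 ± 0.12 in transgenic lungs (SD, n = 4 each). WT3 stood highest and TG1 lowest either way. The range from lowest to highest lung was 0.42 over the 10 genes and 0.53 over the 9, and over the 10 genes it was 0.30 without WT3 and 0.25 without TG1. The order of the lungs depended on the setting: WT2 was highest in the Cy5 channel alone, and TG4 was lowest over all member probes that passed the filter. WT3 was the highest lung for 4 of the 10 genes, and WT1 was at once the highest for 3 and the lowest for 4.

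Other striated muscle genes were read from lists beside the members. They stand in the contrast that chose the members and belong to the same kind of gene, so their counts are given beside the background and nothing is read from them. A list of further genes of fast fibers and of genes that all skeletal fibers share had 53 measured genes, of which 50 passed the filter with 81 probes. Its median difference between genotypes was -0.06, and 56 probes were lower and 25 higher in transgenic lungs. By 1.5-fold and an unadjusted p under 0.05, 0 probes were lower and 0 higher, and 4 had an unadjusted p under 0.05, all lower, which is 4 of 81 beside 2.09% of all probes in either direction. These were Tcap, the titin cap of the Z-disc (log2 difference -0.47, SE 0.15), Ldb3, a further Z-disc protein (-0.25, SE 0.10), and 2 probes of Ttn, the giant spring protein of the sarcomere (-0.50, SE 0.23, and -0.47, SE 0.18). Other probes of these genes gave smaller differences, with -0.10 (SE 0.18) and -0.02 (SE 0.23) for Ldb3, and between -0.28 and 0.09 for the 7 other Ttn probes. The brightest Ttn probe was at -0.01 (SE 0.17). Each had an adjusted p of 1 in limma, and Tcap rested on 2 wild-type lungs because its spots on WT2 and WT4 were flagged. Against the pool, 9 of the 81 probes were above it and 0 below it by 1.5-fold and adjusted p. Among them were Mb, the oxygen store myoglobin (mean log2 ratio 0.84), and Tcap (1.03). The probes of Pvalb, the calcium buffer of fast fibers, and of Myot were well above background on 0 of 8 arrays.

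Genes of slow fibers, which the heart also uses in part, had a median difference of -0.10 over 13 probes. Again 0 were past 1.5-fold with an unadjusted p under 0.05. Under an unadjusted p of 0.05 were Myl3, the light chain of slow and ventricular myosin (-0.42, SE 0.14), and Myoz2, a Z-disc protein of slow and cardiac muscle (-0.57, SE 0.23), both lower. The brighter Myl3 probe gave -0.02 (SE 0.09), and a dim Myoz2 probe that did not pass the filter gave -0.01.

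Cardiac muscle genes had a median difference of -0.13 over 22 probes. Past 1.5-fold with an unadjusted p under 0.05 were 1 lower and 0 higher. The probe was of Myh6, a myosin motor of cardiac muscle (-0.62, SE 0.21, with WT2 flagged). A further 2 probes, both of the atrial light chain Myl4, were under an unadjusted p of 0.05 and lower (-0.54, SE 0.23, and -0.51, SE 0.21). The mean of the 11 cardiac genes with a value in every lung was 0.14, 0.06, 0.34 and -0.07 in WT1 to WT4 and -0.31, 0.02, 0.13 and -0.14 in TG1 to TG4. As over the members, WT3 was highest and TG1 lowest.

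Members differed in how far they followed this cardiac mean over the 8 lungs. The correlation was 0.85 for Myom1, 0.81 for Myom2 and 0.76 for Ckm, which cardiac muscle is also known to express, and within genotype it was 0.80, 0.75 and 0.65. Of the genes of fast fibers, Myh4 stood at 0.60, Myh2 at 0.31, Myh1 at 0.02, Tnni2 at 0.01, Mylpf at -0.24 and Tnnt3 at -0.25. Acta1, an actin that the heart also makes, stood at -0.54 over 7 lungs. With the mean of the slow list, r was 0.93 for Ckm (0.91 within genotype) and 0.73 for Myom2 (0.55). High values were not particular to the cardiac and slow lists. With the further fast and shared list, r was 0.86 for Myom1, 0.58 for Myom2 and 0.71 for Ckm (0.81, 0.22 and 0.46 within genotype). With a list of peripheral nerve sheath genes, r was 0.73, 0.83 and 0.56 in the same order (0.62, 0.63 and 0.07 within genotype). The part of cardiac muscle RNA in the values of Myom2 and Ckm was not tested.

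That WT3 was the highest and TG1 the lowest of 8 lungs held for 3.53% of all probes tested with 8 values. It held for 2 of 15 member probes, 13 of 77 probes of the further fast and shared list, 5 of 12 of the slow list and 6 of 18 of the cardiac list. In the smooth muscle and adipocyte lists it held for 0 of 16 and 0 of 11 probes. Of the lung identity list it held for 1 of 7 probes, and for the mean of that list.

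Markers of other tissues that can adhere to a dissected lung were read in the same way. Adipocyte genes were lower in transgenic lungs for 12 of 13 probes, with a median difference of -0.29, and 4 probes were past 1.5-fold with an unadjusted p under 0.05. They were of Car3, an anhydrase abundant in fat and slow muscle (-1.33, SE 0.38), of Adipoq, the hormone adiponectin (-0.89, SE 0.26), and of Fabp4, the fatty acid carrier of adipocytes (-1.14, SE 0.36, with TG3 flagged). The brighter Fabp4 probe had overlapping groups (-0.87, SE 0.35), and the dimmer Car3 probe gave -0.23 (SE 0.16). The mean of the 9 adipocyte genes with a value in every lung was 0.94, 0.38, 0.79 and 0.46 in WT1 to WT4 and 0.36, 0.14, 0.48 and -0.51 in TG1 to TG4. Its lowest lung was TG4, not TG1. The signal above local background was also summed over the 10 adipocyte genes, each by its brightest tested probe. This sum was 13630 to 19550 in wild-type and 4804 to 16140 in transgenic lungs. Over the lungs the adipocyte mean had r = 0.58 with Myom2 and 0.31 with Ckm, and within genotype 0.21 and -0.28, and the part of fat in the muscle values was not tested.

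Smooth muscle genes had a median difference of 0.07 over 21 probes, with 0 under an unadjusted p of 0.05. The same 0 held for squamous epithelium of the oesophagus (15 probes), cartilage (15), peripheral nerve sheath (6), tendon (4) and thymocyte genes (9).

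Lung identity genes were lower in transgenic lungs for 10 of 13 probes, with a median difference of -0.21. Sftpd and Sftpa1, which encode surfactant proteins, were under an unadjusted p of 0.05, with -0.47 (SE 0.16) and -0.75 (SE 0.30), and Sftpa1 was past 1.5-fold. The mean of the 7 lung identity genes with a value in every lung was 0.31, 0.28, 0.53 and 0.02 in WT1 to WT4 and -0.24, 0.04, 0.18 and 0.08 in TG1 to TG4. As over the members, WT3 was highest and TG1 lowest, and the groups overlapped, with means of 0.28 ± 0.21 and 0.01 ± 0.18 (SD, n = 4 each). Over the lungs this mean had r = 0.83 with Myom1, 0.82 with Ckm, 0.82 with Myom2 and 0.75 with Myh4, and within genotype 0.76, 0.69, 0.67 and 0.73. The part of such a shift of lung genes in the muscle values was not tested.

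**Figure D4:**
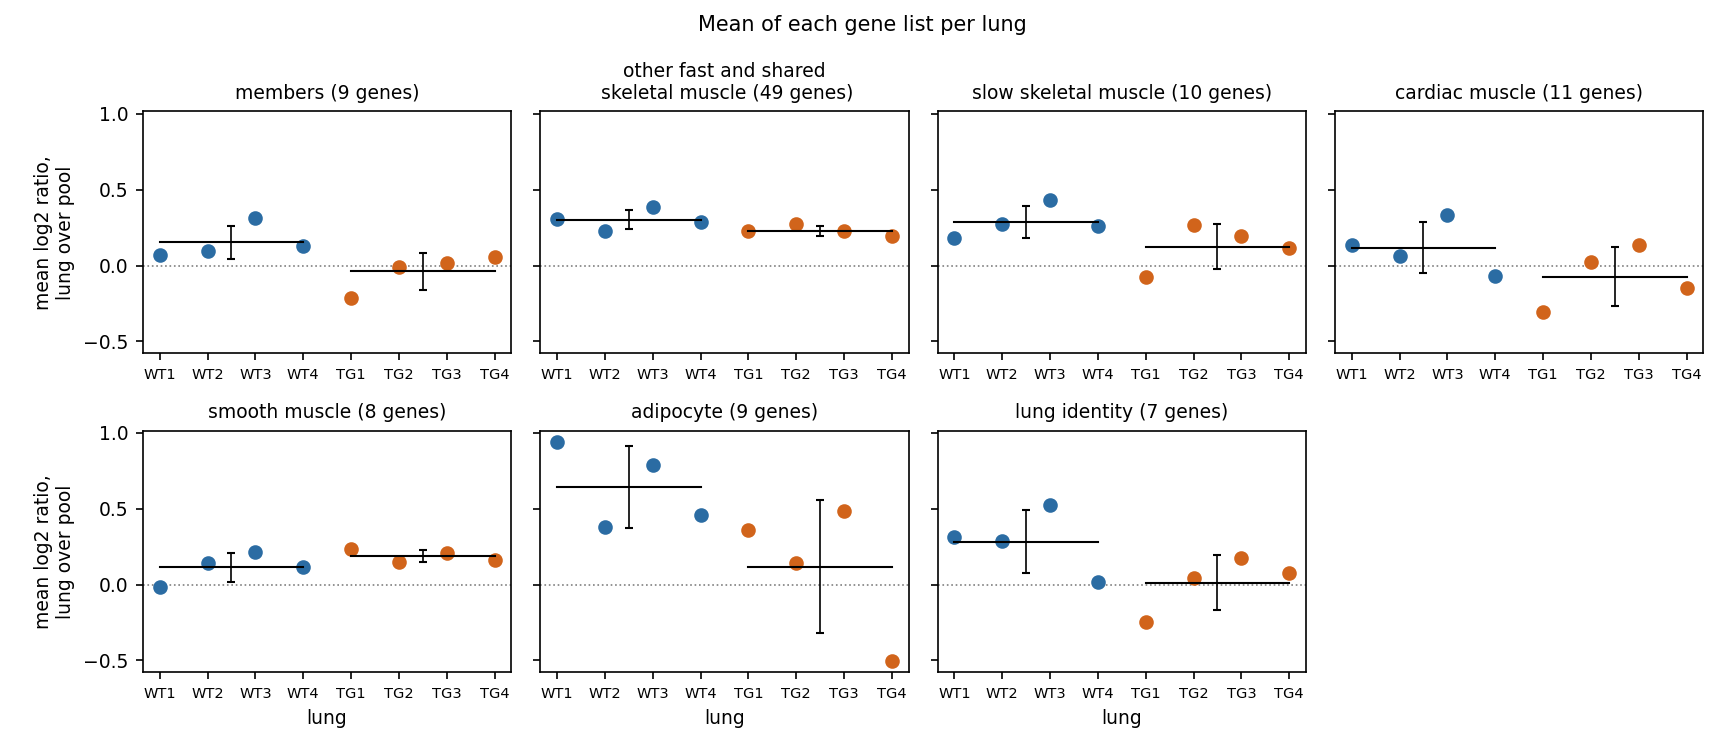
Mean log2 ratio of lung over pool per lung for 9 members and 6 lists of other genes (brightest tested probe of each gene with a value in every lung, so that each lung rests on the same genes), with lines for the mean and SD of 4 lungs per genotype. WT3 is highest and TG1 lowest for the members and for the slow, the cardiac and the lung identity list, while the adipocyte list has its lowest lung in TG4 and the smooth muscle list shows no such order.

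Genes that are no members were ranked by their correlation with the mean over the 10 members, which lacks Acta1 in TG3. Over the 8 lungs, 29479 probes with all values could be ranked, and the 8 most alike genes were Pla2g12a (r = 0.97), Tmco3, Ttn (r = 0.96), Slc25a36, Baiap2, Mtmr1, Slc6a14 and Ubxn7 (r = 0.94). With genotype means removed, they were Ube2b (r = 0.99), Commd7, Zfp91, Sdhc, 2210010C17Rik, Slc25a36, Pla2g12a and Stard13 (r = 0.97). Pla2g12a and Slc25a36 were in both rankings. Of the 100 most alike probes, 4 over the lungs and 1 within genotype belonged to the lists of striated muscle genes, which made up 0.363% of the probes ranked. The ranking changed with the mean used. By the mean over the 9 members with a value in every lung, the genes most alike were Sbf2 (r = 0.98), Ubxn7 and Ppl over the lungs and Sema3e (r = 0.99), Sbf2 and Gdnf within genotype, and of the 8 most alike genes 2 and 0 were shared with the rankings above. Of the 100 probes most alike by the mean over the 9 members, 6 over the lungs and 0 within genotype belonged to the striated muscle lists. Correlations of this height over 8 points, picked from so many probes, describe a shared order of lungs and no more.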

How the data were processed

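Scanner output was deposited for each array, made with Feature Extraction 10.10.1.1 per the file headers (11.0.1.1 in the submitters' processing notes). The deposited output holds median spot intensities, local backgrounds, processed intensities and log10 ratios. The deposited matrix holds log2 ratios of processed Cy5 over Cy3 (39811 of 39811 single-spot probes equal within 0.001), with scale and direction thereby known and no centring. The paper's methods state a t-test but no background correction for the arrays.

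Median intensities were corrected with normexp (offset 50, fitted on spots without an outlier flag), control spots and flagged spots were removed, and log2 ratios were loess-normalized within arrays and averaged over the spots of a probe, in R 4.3.3 with limma 3.58.1. Probes well above background on at least 4 of 8 arrays with at least 2 values per genotype were tested (32645), two-sided, with limma's moderated test and Benjamini-Hochberg adjustment. Samples were grouped by the labels, and all 8 were used. Replicate numbers did not pair the mice, as the deviations of same-numbered lungs correlated at 0.32, 0.25, -0.08 and -0.21. Lungs that shared a slide correlated at 0.30 on slide 1, 0.32 on slide 2, 0.25 on slide 3 and 0.08 on slide 4. The SEs of the genotype differences are from the fit without a slide block. With the slide as a block they were 0.10 for Myh4, 0.10 for Ckm and 0.12 for Myh1, but 0.23 for Myom2.

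The members and gene lists were chosen with earlier results of these data known. Of the genes listed, 10 had no match to a symbol. Named beside the members were, from each list, genes with the smallest p under 0.05 (up to 3, or 8 for the further fast and shared list), the 8 genes most alike by correlation over lungs and within genotype, and Scgb3a2. Mb, Pvalb and Myot were named after their values were seen. A gene was represented by its brightest probe by processed Cy5 signal. Another 21 settings were tried, and 2 were added after seeing the data (all member probes that passed the filter, and the member mean over genes with a value in every lung). The fits were tested on simulated data. The number of arrays limits the precision. Motifs were searched in RefSeq windows of GRCm38.p6, and figures were drawn with matplotlib 3.10.9.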

Additional observations from a re-analysis of the deposited data

Results flagged for a closer look

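Of 39 groups of lungs examined, 37 of them of single member probes and 2 of the mean over the members, 1 held a lung far from the others by Dixon's criterion, and chance alone flags about 1 in 20. It was the second Myh4 probe in the transgenic lungs, where TG1 stood at a log2 ratio of 0.74 and the nearest lung at -0.08. The brighter Myh4 probe had its lowest value in the same lung, at -0.25.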

How the results depend on the processing

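The median difference of the members between genotypes (-0.12) stayed below 0 in 19 of 19 alternatives, from -0.20 to -0.05, and that of the further skeletal muscle list (-0.06) in 18 of 18, from -0.11 to -0.03. Among these alternatives, blocks for replicate number, slide or scan day cannot move a probe with a value on every array. Agilent's processed signals and the authors' matrix are nearly the same values. Counts of probes moved more. For transgenic against wild-type, 75 probes were past 1.5-fold with an unadjusted p under 0.05 (41 higher, 34 lower). There were 221 with an offset of 0, 33 with normexp fitted on all spots, 371 with Agilent's processed signals, 360 in the authors' matrix and 137 with the slide as a block. A t-test, as the methods name it, gave 27 (0 after adjustment). It was run on the ratios normalized here and not on the authors' values, so it does not repeat their count. With the replicate number as a block there were 131, and the same-numbered lungs were not paired by the check of their deviations. Median centring gave 29 higher and 76 lower. Leaving out 1 mouse gave 49 to 167, namely 49 without WT3, 167 without WT4, 116 without TG3 and 153 without TG4. An adjusted p under 0.05 was reached by 0 probes in each of these.

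Lungs against the pool gave 3456 probes, and 6118 with an offset of 0, 1721 with normexp on all spots, 7163 with processed signals and 7157 in the matrix, or 3164 to 3736 without 1 mouse. Scan day gave 188, and 815, 58, 1060 and 1037 under the same 4 alternatives, or 187 to 397 without 1 mouse (352 without WT1, 308 without TG1 and 397 without TG4).

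The range of the member mean over the lungs (0.42) was 0.56 with an offset of 0, 0.28 with normexp on all spots, 0.72 in the Cy5 channel alone, 0.23 over all member probes and 0.53 over the 9 members with a value in every lung, or 0.25 to 0.42 without 1 mouse. WT3 was its highest and TG1 its lowest lung other than in the Cy5 channel alone (WT2 highest), over all member probes (TG4 lowest), without WT3 (WT4 highest) and without TG1 (TG2 lowest). The difference of Myom2 lay between -0.89 and -0.35 and that of Ckm between -0.66 and -0.32. The cause of these shifts was not tested. Dim probes limit what could be seen, as 3 of the 19 member probes did not pass the filter.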
